A study of Mus musculus with 24 samples.

Results

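Sox2, Sox9, Nkx2-3, Scx, Nfia, Nfib, Bnc2, Ehf, Elf3 and Klf7 are 10 transcription factors of epithelial and mesenchymal lineages that were followed through 24 libraries of mouse salivary gland organoids. They were listed by symbol and chosen by the measured difference between irradiated and sham glands in these libraries, so that difference is described here without a test. All 10 were found among the 47643 genes of the count tables, and all 10 were among the 10563 genes that passed the filter on low counts. The organoids were Matrigel cultures of stem and progenitor cells from the glands of C57BL/6 mice. Irradiation (IR) or sham irradiation of the gland came 14 or 90 days before its cells were taken, and cultures were sequenced at passage 1 and at passage 2, in 8 groups of 3 libraries. Every group, sham included, grew in the same medium with EGF, FGF2, insulin, dexamethasone and the kinase inhibitor Y-27632. Neither the radiation dose nor the age of the mice was given in the sources used here. Passage 2 was grown from passage 1. Whether replicates were separate animals or cultures is not in the labels, so a p-value here reflects the spread among these libraries, and that spread may be technical.

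These factors bind DNA and set which programme a cell follows. SOX proteins carry an HMG box. Sox2 is known for progenitors, including those of salivary acini, and Sox9 for branching epithelia and for cartilage. Nkx2-3 is an NK homeobox factor, Scx (scleraxis) is a basic helix-loop-helix factor known from tendon, Nfia and Nfib are nuclear factor I proteins, Bnc2 and Klf7 are zinc finger proteins, and Ehf and Elf3 are epithelial ETS factors.

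RefSeq promoter sequence (build GRCm38.p6) was at hand for 6 of the 10 factors, Sox2, Nkx2-3, Nfia, Bnc2, Elf3 and Klf7. The 250 bases before the start of Sox2 (chr3:34649745-34649994, plus strand) and of Nkx2-3 (chr19:43612075-43612324, plus strand) are shown, 5′ to 3′, because the levels of these genes followed each other most closely of all pairs. Capitals mark the GC box GGGCGG or its reverse complement CCGCCC.
Sox2: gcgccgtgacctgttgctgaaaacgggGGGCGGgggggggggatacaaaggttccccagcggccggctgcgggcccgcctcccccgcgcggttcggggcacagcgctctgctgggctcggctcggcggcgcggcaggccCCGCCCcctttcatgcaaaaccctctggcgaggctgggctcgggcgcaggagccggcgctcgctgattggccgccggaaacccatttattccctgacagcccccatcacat
Nkx2-3: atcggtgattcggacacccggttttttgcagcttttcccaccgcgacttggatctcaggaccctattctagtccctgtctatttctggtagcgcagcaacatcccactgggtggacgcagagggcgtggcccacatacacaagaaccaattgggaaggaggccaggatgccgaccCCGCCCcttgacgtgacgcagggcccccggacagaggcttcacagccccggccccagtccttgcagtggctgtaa
The following 7 letter strings were searched on both strands, and matches that overlap another string were kept. They were the SOX core ACAAT (27.4% of 32536 promoters of the same length hold it), the NFI half-site TTGGC (41.6%), the ETS core GGAAG (64.1%), the E-box CANNTG (66.2%), the NK2 core AAGTG (40.6%), the CACCC box (52.1%) and the GC box (33% of promoters). The Sox2 window held 2 GC boxes and 1 NFI half-site and none of the other strings, and 72% of its bases were G or C, against a median of 52.4% over all promoters. The Nkx2-3 window held 1 GC box, 2 CACCC boxes, 1 ETS core and 1 E-box, at 60% G or C. A match describes the letters and is not a binding site.

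Gene counts ranged from 1151608 to 3189466 per library. Levels are given in CPM, with TMM library factors, and 1 CPM was a few reads at most. Libraries were read at the 3′ end of transcripts, and levels are compared between groups and not between genes. All 7 epithelial markers were detected in every group, with a sum of 1850 to 3540 CPM, and the basal duct sum was 2090 to 10500 CPM. The acinar sum of 32.7 to 1990 CPM was 90.4% Pip. The fibroblast sum of 52.9 to 1050 CPM was 87.7% Postn, with Pdgfrb, Col3a1, Thy1 and Dpt at 0 counts in all libraries. In 3 libraries, the share of counts on Gm42418, a predicted gene overlapping a ribosomal RNA repeat, differed from both others of their group by over 7 percentage points: IR replicate 3 of day 14 and passage 2, sham replicate 1 of day 90 and passage 1, and IR replicate 1 of day 90 and passage 2. The share otherwise followed treatment at day 90: in passage 1 it was 26.9% to 29.0% in IR and 15.9% and 11.8% in the other sham libraries, and in passage 2 it was 24.29% and 23.02% in the other IR libraries and 13.1% to 15.5% in sham. Sham replicate 1 (28.57%) and IR replicate 1 (13.47%) lay with the opposite group, and the part of the share in the differences between IR and sham was not tested. In passage 2 of day 14 the summed level of 8 interferon-induced genes (Ifit1, Ifit3, Isg15, Rsad2, Usp18, Irf7, Oasl2 and Rtp4) was 25.6, 915 and 859 CPM in the sham libraries and 32.7, 67 and 849 CPM in the IR libraries, so sham replicate 1 and IR replicate 3 lay with the other group. At day 90 and passage 1 that sum was 24.8 CPM in sham replicate 1, 552 and 139 CPM in the other sham libraries and 26.4 to 29.9 CPM in IR, so this sham library lay with IR by both measures, although it held the most Sox2 and Nkx2-3 of its group. In such bulk samples, fewer cells of a type and less RNA per cell cannot be told apart.

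Sox2 (ENSMUSG00000074637) was lower in the IR organoids of both days and both passages, and its level in sham organoids varied widely between replicates. In passage 1 of day 14 the sham libraries held 2.70, 7.57 and 6.67 CPM and the IR libraries 1.92, 1.89 and 0 CPM. In passage 2 they held 1.14, 47.2 and 67.2 CPM in sham and 0, 0.664 and 1.09 CPM in IR. The groups did not overlap in either passage, but the lowest sham library of passage 2 rested on 2 counts and the highest IR library on 3 counts. Sham libraries of day 90 and passage 1 held 62.1, 2.11 and 3.88 CPM, and IR libraries 1.03, 0 and 0.696 CPM. Those of passage 2 held 139, 8.51 and 16.9 CPM in sham and 0.893, 0.836 and 0 CPM in IR. In each of the 4 pairs of groups every sham library stood above every IR library. The whole IR set of 12 libraries held 18 Sox2 counts, and the 12 sham libraries held 935.

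Pooled over the 3 libraries of a group, the level of Sox2 was 5.12 times as high in sham as in IR at day 14 and passage 1 (95% counting interval 2.1 to 15). It was 62 times as high at day 14 and passage 2 (interval 23.9 to 229). At day 90 the ratio was 25.2 in passage 1 (interval 8.43 to 124) and 94.8 in passage 2 (interval 40.4 to 293). These intervals cover counting error only, and the spread between replicates was wider: 4 sham libraries held 86.5% of the sham counts. Leaving out sham replicate 1 brought the ratio at day 90 down to 5.1 in passage 1 and 20.2 in passage 2. That replicate of passage 1 was also the one that lay with IR by its Gm42418 share and its interferon sum. The fitted log2 fold change of IR over sham was −2.27 (SE 1.94), −5.77 (SE 1.62), −4.95 (SE 1.83) and −6.38 (SE 1.5) in the same order. Without the 2 libraries of day 14 and passage 2 that lay with the other group by interferon genes, the second value was −7.30, and without the 3 libraries apart by their Gm42418 share the value of day 90 and passage 1 was −2.24. With that share as a covariate the values of day 90 were −5.91 and −7.62.

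Nkx2-3 (ENSMUSG00000044220), a homeobox factor known from spleen and gut development, was found almost only in sham libraries. In passage 1 of day 14 its sham libraries held 0, 2.33 and 2.05 CPM and the IR libraries 0, 1.89 and 0 CPM. In passage 2 they held 0, 9.45 and 14.2 CPM in sham and 0, 0.664 and 0 CPM in IR. At day 14 the groups overlapped in both passages. At day 90 the sham libraries of passage 1 held 20.9, 1.41 and 1.81 CPM and those of passage 2 held 43.4, 1.82 and 3.38 CPM. All 6 IR libraries of day 90 were at 0 counts.

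In all, 3 Nkx2-3 counts fell in the 12 IR libraries and 265 in the 12 sham libraries, of which 4 libraries held 87.2%. The pooled ratio of sham to IR was 4.1 at day 14 and passage 1 (95% counting interval 0.817 to 39.6) and 51 at day 14 and passage 2 (interval 8.74 to 2060). Against a floor of 3 counts over the IR group, Nkx2-3 was at least 9.23-fold higher in sham at day 90 and passage 1 and at least 47.2-fold higher at day 90 and passage 2. The exact 95% counting interval, which also takes in the error of the sham counts, began at 7.22 and 37.9. Without sham replicate 1 the bounds against the floor were 2.67-fold and 6.9-fold.

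**Figure D1:**
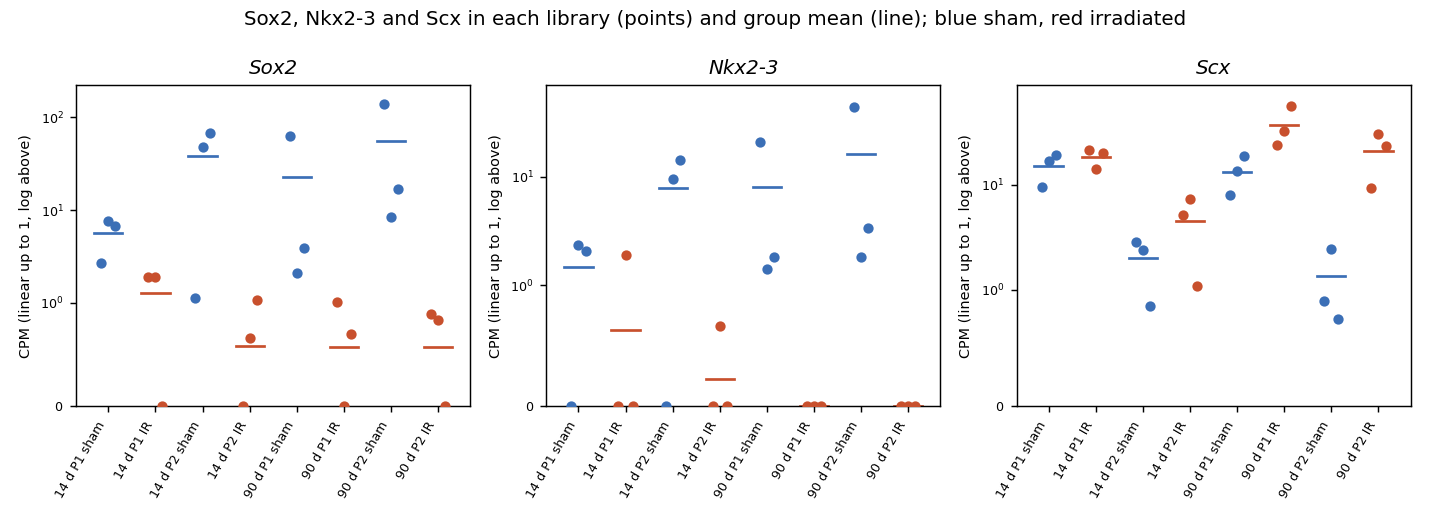
CPM of Sox2, Nkx2-3 and Scx in each of the 24 libraries (points) with the group mean (line), on an axis that is linear up to 1 CPM and logarithmic above, for sham (blue) and irradiated (red) glands by day (d) and passage (P). Sox2 and Nkx2-3 lay at or below 1.92 CPM in all IR libraries, while Scx in IR reached 55.7 CPM at day 90 and passage 1.

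Sox2 and Nkx2-3 were high in the same libraries. Over 24 libraries their levels, as log2(CPM + 1), had a Pearson correlation of 0.955, and over the 12 sham libraries alone of 0.966. With each group's mean subtracted it was 0.933. Over the 12 IR libraries, where nearly all values were at a few counts or 0, it was 0.428. The libraries that drove it were sham replicates 2 and 3 of day 14 and passage 2 and sham replicate 1 of both passages at day 90. The points share library depth, and passage 2 was grown from passage 1. Over all 24 libraries, no other pair among the 10 factors had a positive correlation above 0.575, the value of Sox2 with Nfia, which was −0.145 once group means were subtracted. Within treatments other pairs were higher, up to 0.863 for Sox9 with Elf3 in IR and 0.8 for Bnc2 with Klf7 in sham, and with group means subtracted Sox9 with Klf7 reached 0.752.

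**Figure D2:**
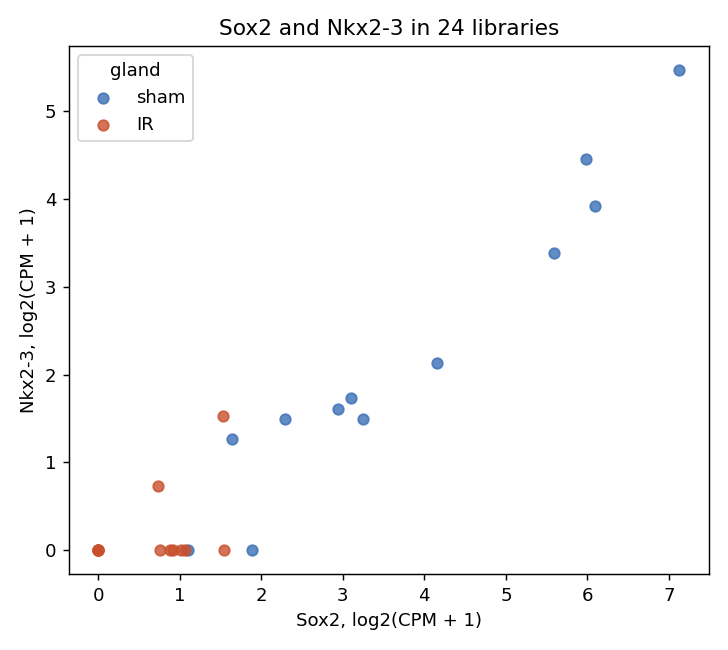
Level of Nkx2-3 against that of Sox2, both as log2(CPM + 1), with 1 point per library in sham (blue) and irradiated (red) glands. The sham libraries spread along a rising line (correlation 0.966), and the IR libraries sit at the lower left.

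Egln3, a prolyl hydroxylase that acts on hypoxia-inducible factors, was the gene most like both in pattern among 9241 genes with a mean of at least 5 CPM. Its correlation over 24 libraries was 0.856 with Sox2 and 0.858 with Nkx2-3. It stood at 42.5 and 27.1 CPM in sham replicates 2 and 3 of day 14 and passage 2, and at 35 and 75.5 CPM in sham replicate 1 of day 90 in passages 1 and 2. Its other sham libraries held up to 16.9 CPM. Next were Cd34, a cell surface sialomucin, for Sox2 (0.807) and Atp1b3, a sodium pump subunit, for Nkx2-3 (0.821). Markers of Schwann and neuronal cells, where Sox2 is also known, summed to 0 to 14.2 CPM, and 54.9% of this sum was Tubb3. Their 2 highest libraries were in the IR group of day 14 and passage 1. The part of such cells in the Sox2 values was not tested.

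Sox9 (ENSMUSG00000000567) overlapped between sham and IR in all 4 pairs of groups. It was expressed in every library, from 363 to 769 CPM. Group means of Sox9 ran from 477 ± 112 CPM in day 14 passage 1 sham to 646 ± 167 CPM in day 90 passage 2 IR (SD, n = 3). No neighbouring pair in that order differed beyond its spread. The log2 fold change of IR over sham was 0.10 (SE 0.23), 0.09, 0.03 and 0.14. Sft2d2 (0.83) and Cybc1 (0.811) had the patterns most like that of Sox9 over 24 libraries.

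Scx (ENSMUSG00000034161) was higher in IR than in sham organoids at day 90. At day 90 and passage 1 the sham libraries held 7.90, 13.4 and 18.6 CPM and the IR libraries 23.7, 32.4 and 55.7 CPM. Those of passage 2 held 0.899, 2.43 and 0.751 CPM in sham and 9.23, 30.5 and 23.5 CPM in IR. The groups did not overlap in either passage, and in passage 2 the sham libraries rested on 3, 8 and 2 counts. The mean of Scx went from 13.3 ± 5.36 in sham to 37.3 ± 16.5 CPM in IR in passage 1 and from 1.36 ± 0.931 to 21.1 ± 10.8 CPM in passage 2 (SD, n = 3).

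At day 14 the Scx libraries of sham and IR overlapped. In passage 1 they held 9.45, 16.9 and 19.0 CPM in sham and 21.2, 14.2 and 20.2 CPM in IR. In passage 2 they held 2.84, 2.36 and 0.861 CPM in sham and 5.16, 7.30 and 1.09 CPM in IR. The log2 fold change of IR over sham was 0.30 (SE 0.47) and 1.05 (SE 0.77) at day 14 (1.99 in passage 2 without sham replicate 1 and IR replicate 3), and 1.42 (SE 0.44) and 3.85 (SE 0.59) at day 90. The values of day 90 were 1.19 and 4.21 without the 3 libraries apart by their Gm42418 share and 1.13 and 3.65 with that share as a covariate.

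Markers of tendon, the tissue that Scx is known from, were near absent. Of 5 tendon markers, Tnmd and Kera had 0 counts in all libraries, and the sum of 0 to 3.48 CPM was 89.9% Mkx. The sum at day 90 and passage 2 was 0.899 to 1.52 CPM in sham and 1.62 to 3.34 CPM in IR. Of 5 cartilage markers, Matn1, Cnmd and Hapln1 had 0 counts throughout, and the sum was at most 2.1 CPM. In a wider list of cartilage and tendon genes, 4 could be tested at day 90 and passage 2. DESeq2 called 1 of them, Tnc, higher in IR, and edgeR called 0. The closest pattern to Scx was that of Fn1, the matrix protein fibronectin (correlation 0.967 over 24 libraries, 0.791 with group means subtracted), followed by Sorbs2, an adaptor protein of the actin cytoskeleton (0.96 and 0.803). Fn1 at day 90 and passage 2 was at 37.1, 121 and 89.4 CPM in sham and at 625, 1680 and 2160 CPM in IR.

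Nfia (ENSMUSG00000028565) was lower in IR in all 4 pairs of groups, with no overlap in any. At day 14 the sham libraries of passage 1 held 143, 141 and 132 CPM and the IR libraries 73.1, 59.5 and 103 CPM. In passage 2 they held 144, 214 and 192 CPM in sham and 118, 115 and 139 CPM in IR. The gap in passage 2 was narrow, between 139 CPM in IR and 144 CPM in sham. At day 90 the sham libraries of passage 1 held 106, 140 and 138 CPM and the IR libraries 78.9, 66.7 and 73.8 CPM. In passage 2 they held 151, 214 and 180 CPM in sham and 129, 90.2 and 98.5 CPM in IR. The ratio of the IR to the sham mean was 0.566, 0.674, 0.572 and 0.584, so the difference had a like size in the 4 pairs. The log2 fold change was −0.80 (SE 0.20), −0.57 (SE 0.19), −0.81 (SE 0.20) and −0.77 (SE 0.19). With the Gm42418 share as a covariate the values of day 90 were −0.48 and −0.58. Gas1, a hedgehog co-receptor (0.917), and Ccdc3 (0.914) had the patterns most like that of Nfia over 24 libraries.

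Nfib (ENSMUSG00000008575) stood apart between sham and IR only at day 14 and passage 1. There the sham libraries held 1580, 1420 and 1440 CPM and the IR libraries 921, 845 and 1360 CPM (log2 fold change −0.50, SE 0.19). In the other 3 pairs the groups overlapped, with log2 fold changes of 0.01, 0.07 and 0.23. Over all libraries Nfib ranged from 791 CPM, in day 90 passage 2 sham, to 1650 CPM, in day 14 passage 2 IR. Nfia and Nfib thus differed from each other in how often their groups were apart, a difference that was not tested. Hspg2, the basement membrane proteoglycan perlecan (0.774), and Camk4 (0.755) had the patterns most like that of Nfib.

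Bnc2 (ENSMUSG00000028487) was lower in IR at day 14 and passage 1 and at day 90 and passage 2. At day 14 and passage 1 the sham libraries held 22.3, 17.5 and 25.7 CPM and the IR libraries 9.14, 7.56 and 7.97 CPM. The libraries of day 90 and passage 2 held 12.3, 9.42 and 13.5 CPM in sham and 8.63, 7.10 and 9.33 CPM in IR, a gap as narrow as that between 9.33 CPM and 9.42 CPM. In the other pairs the groups overlapped, at 12.1 to 21.3 CPM in sham and 7.30 to 14.5 CPM in IR at day 14 and passage 2, and at 9.59 to 11.6 CPM and 7.93 to 17 CPM at day 90 and passage 1. The log2 fold change was −1.39 (SE 0.30), −0.42 (SE 0.29), 0.27 and −0.48 (SE 0.28) in the order of day 14 then day 90, passage 1 first. Rnf217 (0.721) and Aldh9a1 (0.705) had the patterns most like that of Bnc2.

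Klf7 (ENSMUSG00000025959), a Krüppel-like factor, was lower in IR at day 14 and passage 1 and higher in IR at day 90 and passage 1. At day 14 its sham libraries held 236, 284 and 207 CPM and its IR libraries 148, 122 and 129 CPM. At day 90 the sham libraries held 77.9, 105 and 114 CPM and the IR libraries 122, 133 and 125 CPM. The groups did not overlap on either day, with log2 fold changes of −0.86 (SE 0.23) and 0.35 (SE 0.23). In passage 2 the groups overlapped, at 139 to 249 CPM in sham and 147 to 235 CPM in IR at day 14, and at 97.3 to 123 CPM and 90.2 to 164 CPM at day 90. The log2 fold change in passage 2 was 0.08 at day 14, or −0.24 without sham replicate 1 and IR replicate 3, and 0.22 at day 90. Fnip1, a folliculin partner (0.816), and Tor2a (0.815) had the patterns most like that of Klf7.

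Elf3 (ENSMUSG00000003051) had a higher mean in IR in all 4 pairs, with groups apart in only some of them. Sham libraries of day 14 and passage 2 held 11.4, 13.6 and 12.9 CPM, and IR libraries 17.2, 19.9 and 27.9 CPM. Those of day 90 and passage 1 held 14.1, 10.6 and 11.4 CPM in sham and 15.5, 17.8 and 37.6 CPM in IR. These were the pairs without overlap. In passage 1 of day 14 the values were 7.43, 15.7 and 18.0 CPM in sham and 30.3, 12.3 and 15.9 CPM in IR. In passage 2 of day 90 they were 23.4, 13.7 and 10.1 CPM in sham and 7.14, 47.2 and 39.3 CPM in IR. The lowest value of that last pair, 7.14 CPM, was IR replicate 1, the library that lay with sham by its Gm42418 share. The log2 fold change of Elf3 was 0.53 (SE 0.53), 0.80 (SE 0.52), 0.97 (SE 0.51) and 0.95 (SE 0.47). Without IR replicate 3 and sham replicate 1 of day 14 and passage 2 the second value was 0.48, and without the 3 libraries apart by their Gm42418 share the last was 1.43. With that share as a covariate the values of day 90 were 0.44 and 0.51.

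Ehf (ENSMUSG00000012350) overlapped between sham and IR in all 4 pairs and ranged from 328 to 679 CPM. Its log2 fold change of IR over sham lay between −0.07 and 0.11. The lowest group mean was 464 ± 51.9 CPM in day 90 passage 1 IR and the highest 605 ± 102 CPM in day 90 passage 2 IR (SD, n = 3). Samhd1 (0.793) and Errfi1, a feedback inhibitor of the EGF receptor (0.791), were most like Ehf, and Ghitm (0.822) and Cmtm3 (0.801) were most like Elf3.

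**Figure D3:**
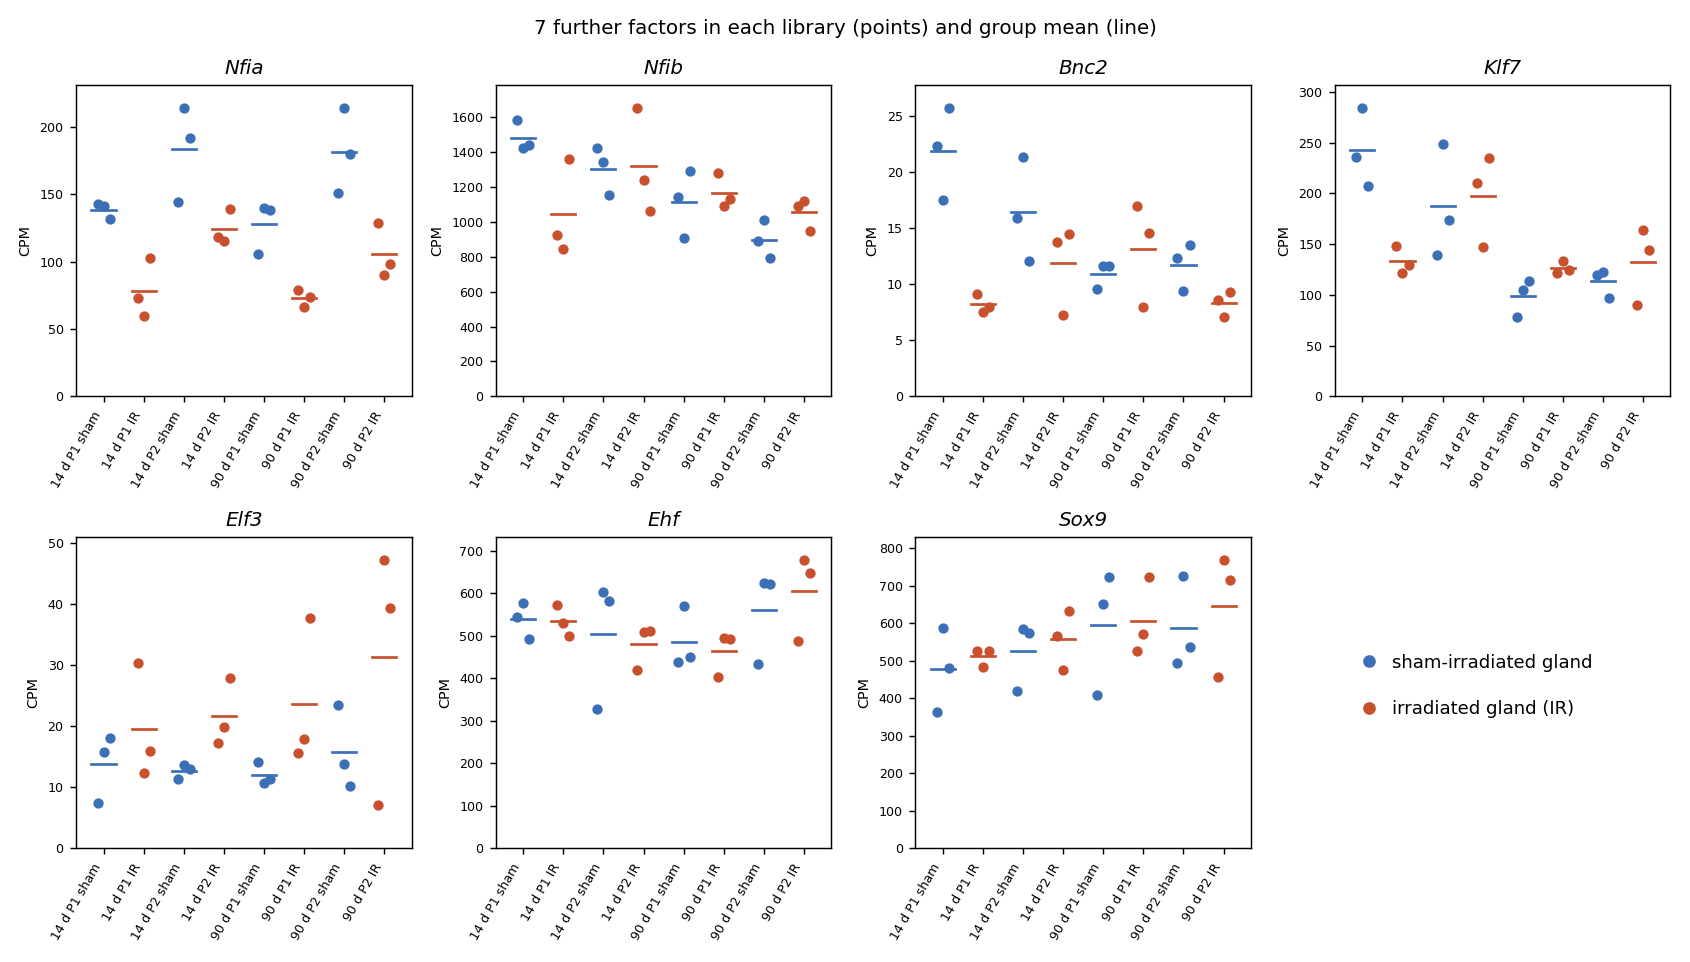
CPM, on linear axes from 0, of Nfia, Nfib, Bnc2, Klf7, Elf3, Ehf and Sox9 in each library (points) with the group mean (line), for sham (blue) and irradiated (red) glands by day (d) and passage (P). Nfia lay lower in IR in each of the 4 pairs of groups, and Sox9 and Ehf overlapped in all of them.

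Counted over the 10 factors, the libraries of sham and IR did not overlap for 5 at day 14 and passage 1 (17.2% of all tested genes did not), 3 at day 14 and passage 2 (11.5%), 6 at day 90 and passage 1 (19.5%) and 5 at day 90 and passage 2 (20.6%). These comparisons chose the genes, and nothing is read from the counts. The median log2 fold change of the 10 was −0.65, −0.03, 0.05 and 0.13, beside medians of all tested genes between −0.01 and 0.01.

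**Figure D4:**
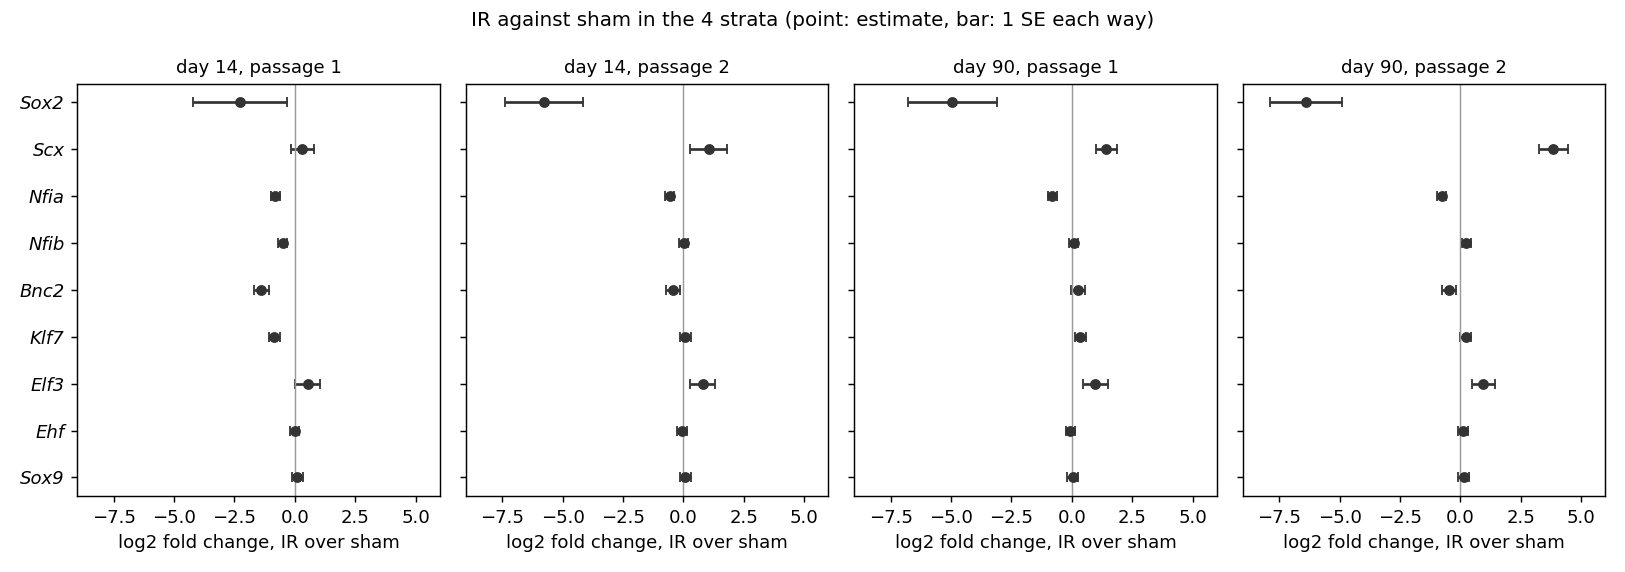
Log2 fold change of IR over sham (point) with 1 SE to each side (bar) for 9 factors in the 4 pairs of groups, without Nkx2-3, whose IR groups of day 90 had no count. Sox2 lies left of 0 throughout, down to −6.38, Nfia between −0.81 and −0.57, and Scx reaches 3.85.

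Cell type markers also differed between sham and IR, and their part in the values of the 10 factors was not tested. The sum of 7 luminal duct markers was higher in IR in all 4 pairs, for example 756 to 945 CPM in sham and 1410 to 1750 CPM in IR at day 90 and passage 2, with 6 of 7 detected in each group. Wfdc2 made up 72.9% of this sum, and the median log2 fold change of the 6 tested markers was 0.03, 0.22, 0.51 and 1.47 over the 4 pairs, day 14 first. The basal duct sum was 5430 to 8830 CPM in sham and 2090 to 5930 CPM in IR there, an overlap, with all 7 detected. Its mean was lower in IR in all pairs but day 14 and passage 1, with 5410 CPM in sham and 6240 CPM in IR. For day 14 and passage 1 the fibroblast sum, nearly all Postn, was 673 to 937 CPM in sham and 52.9 to 235 CPM in IR, with 5 of 11 detected in each. The myoepithelial sum was 24.4 to 36.5 CPM in sham and 4.33 to 8.91 CPM in IR there, with 5 of 6 detected and Oxtr at 0. In the other pairs the fibroblast sums of sham and IR overlapped. The myoepithelial mean was lower in IR in all pairs but day 90 and passage 2, with 7.31 CPM in sham and 7.93 CPM in IR. The acinar sum, nearly all Pip, was lower in IR without overlap at day 90, with means of 308 CPM in sham (lowest library 276) and 104 CPM in IR (highest library 193) in passage 1, with 8 and 6 of 9 detected. In passage 2 it was 290 to 1220 CPM in sham and 151 to 267 CPM in IR, with 9 and 5 of 9 detected. Lpo, Smgc and Muc19 were at 0 in IR in both passages and Bpifa2 in passage 2. Bhlha15 went the other way in passage 1, at 0 in sham and detected in IR. Only 3 of the 9 acinar markers had enough counts to be tested. Their median log2 fold change was −0.76, 0.28, −1.40 and −0.37 over the 4 pairs, day 14 first.

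Passage and day were tested on the average of sham and IR, weighted equally. These weights are orthogonal to those of the difference between sham and IR that chose the factors. Where sham and IR differ in counts, average and difference are not fully independent, so the choice may still bear on these tests. Scx at day 90 and passage 2, for example, had 3, 8 and 2 counts in sham and 31, 73 and 58 in IR. Scx fell from passage 1 to passage 2 on both days, and Nfia rose on both. At day 14 Scx fell by 2.58 on the log2 scale, 5.96-fold (SE 0.43, adjusted p = 0.000936 by edgeR's quasi-likelihood test over all genes), and all 6 libraries of passage 2 lay below all 6 of passage 1. At day 90 it fell by 2.04, 4.11-fold (SE 0.37, adjusted p = 0.00405), where the high IR libraries of passage 2 overlapped with passage 1. That average joins unlike falls, from a mean of 13.3 to 1.36 CPM in sham and from 37.3 to 21.1 CPM in IR. The difference between these falls was not tested. Both calls held in each of 23 alternatives, with log2 fold changes from −2.95 to −2.28 at day 14 and from −3.25 to −1.84 at day 90. The alternatives included the sham groups alone, compared within the fit of all 24 libraries. Beside Scx, 4 of 26 cartilage and tendon genes could be tested. At day 14 edgeR called 1 higher and 1 lower, where 4.53% of all genes were called. At day 90 it called 0 of the 4, against 3.91% of all genes. The 2 called genes are those of day 14. Col11a1, a fibrillar collagen, fell by 2.23 (SE 0.59, adjusted p = 0.0304 by edgeR), a call kept in 15 of 23 alternatives and lost without any of 6 single libraries, and when the 2 or the 3 libraries that stood apart were left out. Egr1, an immediate early factor, rose by 1.72 (SE 0.37, adjusted p = 0.00832), a call lost with sham libraries alone. These genes of the list are named because they were the ones called. Other lists held calls between passages too. Of 5 other SOX genes tested, 1, Sox11, was called lower on both days. Of 16 other ETS genes 1 was called lower at day 14. Of 26 further factors of salivary lineages 3 were called higher and 2 lower at day 14, and 1 lower at day 90.

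Nfia rose by 0.52 on the log2 scale, 1.44-fold, from passage 1 to passage 2 at day 14 (SE 0.14, adjusted p = 0.0304 by edgeR). At day 90 it rose by 0.52 as well (SE 0.14, adjusted p = 0.0338). The call was kept in 14 of 23 alternatives at day 14 and in 13 of 23 at day 90. It was lost with sham libraries alone on both days (adjusted p up to 0.434 and 0.246 over the alternatives). At day 14 it was lost without any of the 3 sham replicates of passage 1, sham replicate 2 or 3 of passage 2, IR replicate 1 or 2 of passage 1 or IR replicate 3 of passage 2. At day 90 it was lost without sham replicate 1 or 3 of passage 1, sham replicate 2 or 3 of passage 2, IR replicate 2 or 3 of passage 1 or IR replicate 1 of passage 2, and also without the 3 libraries apart by their Gm42418 share and with that share as a covariate. The luminal duct sum moved with passage, from 1220 to 1480 CPM in passage 1 to 404 to 585 CPM in passage 2 in day 14 sham, and the basal duct sum from 4610 to 6320 CPM to 9070 to 10500 CPM, with all 7 markers of each list detected. Their part in the changes of Scx and Nfia was not tested.

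Klf7 fell from day 14 to day 90 in passage 2, by 0.65 on the log2 scale, 1.57-fold (SE 0.16, adjusted p = 0.0254 by edgeR). In passage 1 its log2 difference was of like size, −0.68 (SE 0.16), with an adjusted p of 0.0879 that missed the threshold. The call in passage 2 was kept in 14 of 23 alternatives (adjusted p up to 0.142). It was lost with sham libraries alone, with only the compared groups fitted, with the Gm42418 share as a covariate, and without sham replicate 2 or IR replicate 1 or 3 of day 14 or sham replicate 3 of day 90. It was also lost when 2 or 3 libraries that stood apart were left out. In passage 1 the difference was called in 3 alternatives.

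The other factors passed no test of passage or day. The nearest was Nfib, which differed by −0.43 from day 14 to day 90 in passage 2 (SE 0.13, adjusted p = 0.0662). The 95% interval of the log2 difference between passages for Sox9 was −0.19 to 0.45 at day 14 and −0.28 to 0.35 at day 90. That of Ehf was −0.40 to 0.15 and 0.02 to 0.57, and the latter had an adjusted p of 0.248. For Sox2 it was −2.44 to 4.43 at day 14, so differences of either sign and large size lay within the error. Nkx2-3 had no count in either IR group of day 90, and no average over sham and IR is given for it.

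Of the 10 factors, 2 were called between passages at day 14, 1 lower and 1 higher, where 4.53% of genes were called (3.06% lower and 1.48% higher). At day 90 2 were called as well, 1 in each direction, against 3.91% of genes (2.22% lower and 1.69% higher). Between days 1 of 10 was called, lower, in passage 2, against 3.91% of genes (1.8% lower). In passage 1 the test of edgeR called 0 of 10, against 0.00947% of genes, with 1 at an unadjusted p under 0.05 (8.18% of genes) and 1 called by DESeq2. The difference of the passage effects between days was called for 0 of 10 factors and 0% of genes by edgeR. There 1 factor, Ehf, had an unadjusted p under 0.05, as had 7.51% of all genes, and DESeq2 called 1 gene in all. The median log2 fold change of the 10 was 0.09 and 0.21 between passages and −0.12 and 0.03 between days, and that of all genes lay between −0.02 and 0.02.

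**Figure D5:**
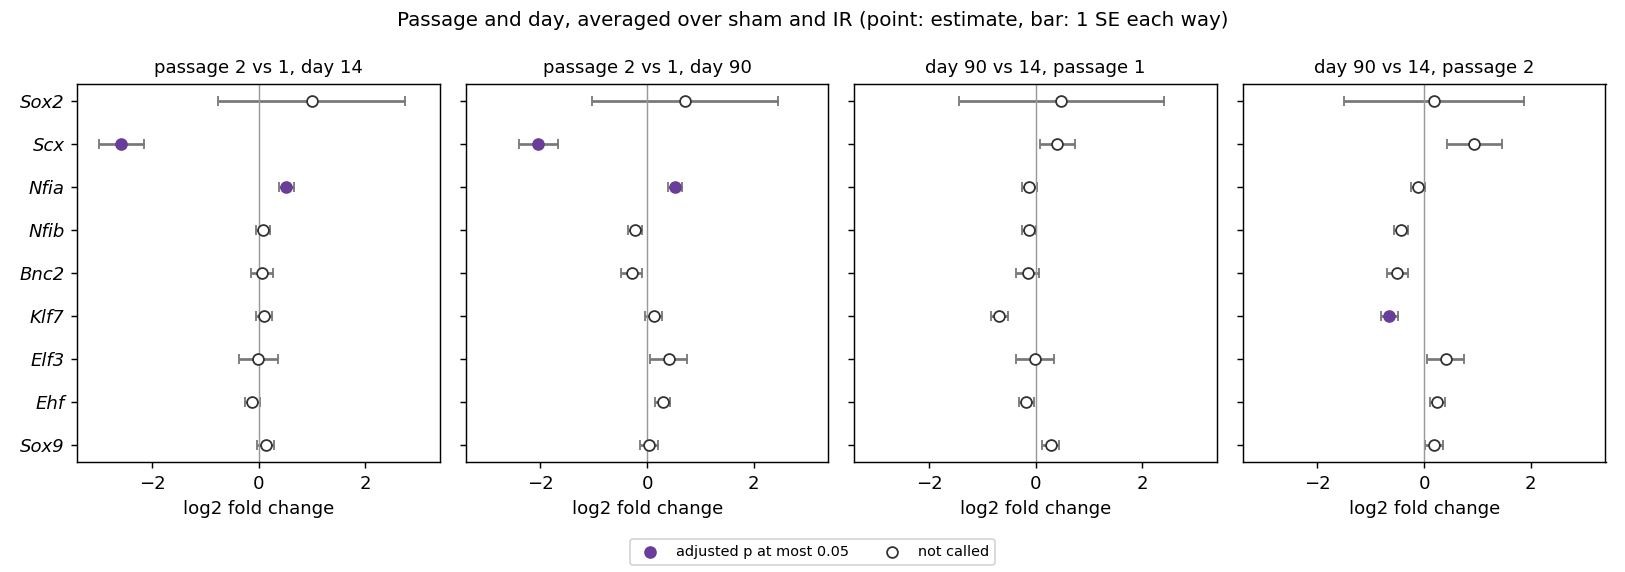
Log2 fold change (point) with 1 SE to each side (bar) for 9 factors between passages and between days, averaged over sham and IR, with filled points where the adjusted p was at most 0.05. The filled points are Scx at −2.58 and −2.04, Nfia at 0.52 on both days, and Klf7 at −0.65.

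The relatives of the 10 factors were not used to choose those factors, but their lists were drawn up with earlier results of these data known. Counts over these lists are therefore a description and no independent support. The relatives were tested between IR and sham by the quasi-likelihood test of edgeR, with Benjamini-Hochberg adjustment over all genes at 0.05. Over all genes that test called 0.341% at day 14 and passage 1, 0.0189% at day 14 and passage 2, 0.0473% at day 90 and passage 1, and 4.92% at day 90 and passage 2 (2.97% higher and 1.95% lower). An unadjusted p under 0.05 was held by 11%, 6.73%, 12.7% and 18.3% of genes in the same order. These shares are given beside the counts of relatives. In the SOX family 5 of 17 other members had enough counts. The test of edgeR called 0 of them in the 4 comparisons, with 1, 0, 0 and 1 at an unadjusted p under 0.05, and DESeq2 called 0. Sox4, known from progenitors, had the highest mean, 445 CPM, with log2 fold changes of −0.44, 0.17, 0.52 and 0.31. Sox11 (mean 14.8 CPM) had log2 fold changes of 1.10, 0.78, −0.51 and 0.94. Both other nuclear factor I genes were tested and 0 were called, with 1, 2, 0 and 1 at an unadjusted p under 0.05 and 0 by DESeq2. Nfix (mean 551 CPM) had log2 fold changes of −0.54, −0.53, −0.28 and 0.09, and Nfic (mean 132 CPM) of −0.49, −0.55, −0.31 and −0.54.

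Bnc1, the other basonuclin, was not called in any of the 4 comparisons by edgeR or DESeq2. Its log2 fold changes were 0.01, 0.43, −0.88 and −1.18 (SE 0.48), the last with an unadjusted p under 0.05. None of the 13 other NK homeobox genes had enough counts to be tested, and 3 of them had any count. Of 10 basic helix-loop-helix relatives and partners of Scx 3 were tested and 0 called, with 1, 0, 0 and 1 at an unadjusted p under 0.05 and 0 by DESeq2. They included Tcf4 (mean 156 CPM) and Tcf12 (mean 106 CPM), which encode E proteins that pair with such factors. Of 26 cartilage and tendon genes 4 were tested and 0 called by edgeR, with 3, 0, 0 and 1 at an unadjusted p under 0.05. DESeq2 called Tnc, a matrix glycoprotein, higher at day 90 and passage 2, where its log2 fold change was 1.24 (SE 0.37).

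Among 16 tested of 23 other ETS genes, edgeR called 1, Ets1, at day 90 and passage 2, where 4.92% of all genes were called. DESeq2 called 1 higher there, Ets1, and 2 lower, Etv5 and Spdef. The mean of Ets1, 26.5 ± 4.38 CPM in sham, rose to 47.2 ± 10.8 CPM in IR (SD, n = 3), by 0.83 on the log2 scale (SE 0.22, adjusted p = 0.0315 by edgeR). The call was kept in 10 of 16 alternatives and lost without sham replicate 1 or 2 or IR replicate 2 or 3, with only the compared groups fitted, and with the Gm42418 share as a covariate. Among 11 tested of 16 other KLF genes, DESeq2 called 1, Klf9, higher at day 90 in both passages. The test of edgeR called 1 as well, at day 90 and passage 2 (4.92% of all genes). This was Klf9, a glucocorticoid-responsive factor. It rose from 96.2 ± 13.3 to 177 ± 61.7 CPM, by 0.87 (SE 0.23, adjusted p = 0.0274), a call kept in 9 of 16 alternatives and lost when IR replicate 2 or 3, or any sham replicate, was left out, and under the same 2 fits.

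Of 26 tested among 34 further transcription factors of salivary lineages, edgeR called 2 higher and 3 lower in IR at day 90 and passage 2. In that comparison it called 2.97% of all genes higher and 1.95% lower. An unadjusted p under 0.05 was held by 11 of the 26 there, beside 18.3% of all genes. DESeq2 called 1 higher and 4 lower there, with Barx2 among them and without Runx2. The test of edgeR called 0 in the other 3 comparisons. There 7, 6 and 10 of the 26 had an unadjusted p under 0.05, beside 11%, 6.73% and 12.7% of all genes, and DESeq2 called 2, 0 and 2. Tfcp2l1, a factor known from ducts, had 57.2 ± 16.7 CPM in sham and rose to 387 ± 216 CPM in IR (SD, n = 3), by 2.75 on the log2 scale (SE 0.52, adjusted p = 0.00389 by edgeR), and was called in all 16 alternatives. Trp63, the basal cell factor p63, fell from 121 ± 41.2 to 54.5 ± 9.97 CPM, by 1.14 (SE 0.25, adjusted p = 0.00939), a call kept in 13 of 16 alternatives and lost without sham replicate 1 or IR replicate 3 and with only the compared groups fitted. Tfap2c, an AP-2 factor, fell from 56.7 ± 9.44 to 21.5 ± 11.8 CPM, by 1.37 (SE 0.33, adjusted p = 0.0162), a call kept in 11 of 16 and lost without sham replicate 1 or IR replicate 2 or 3, with only the compared groups fitted and with the covariate. Tfap2b, its paralogue, fell by 2.27 (SE 0.62, adjusted p = 0.0341) on low counts, a call kept in 8 of 15 and lost without sham replicate 2 or 3 or any IR replicate, without the 3 libraries apart by their Gm42418 share and with the covariate. The remaining called gene, Runx2, falls outside the rule for named genes and was picked after its values were seen. It differed by 0.66 (SE 0.19, adjusted p = 0.0452) and was called in 3 of 16 alternatives. The median log2 fold change of the 26 was 0.02, beside 0.01 for all genes.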

How the data were processed

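For each of 24 QuantSeq 3′ libraries the authors deposited a table of raw counts per gene. GRCm39 and bcl2fastq are named per the submitters' processing notes, while aligner, counter, annotation and strandedness were not given in the sources used here, so genes that overlap others or have close copies may share reads. The 5 lines of each file that name no gene, of which reads on no gene made up 11.5% to 26.5% of a library and ambiguous reads 0.259% to 0.451%, stayed out. Symbols were matched by identifier for 47224 of 47643 genes. Gene counts came to 1151608 to 3189466 per library, so a level near 1 CPM rests on a few reads.

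The test was edgeR's quasi-likelihood test (edgeR 4.0.16, R 4.3.3) after filterByExpr, which left 10563 genes, with TMM factors, 1 mean per group over all 24 libraries and two-sided Benjamini-Hochberg adjustment over all genes, called at 0.05. An SE is the log2 fold change over the square root of F. Intervals of count ratios are exact, cover counting error only, and use a floor of 3 counts where a group had none. Correlations used log2(CPM + 1). The 10 factors and the lists of relatives and markers were chosen with earlier results of these data known. The text names all 10 factors, up to 4 called genes per list of relatives by smallest p (where none was called, the 2 with the highest mean CPM) and, for each factor, the 2 genes most alike.

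Alternatives tried were fits of only the compared groups, DESeq2 1.42.0, no filter or at least 5 CPM in 3 libraries, median-of-ratios factors, a replicate block, sham libraries alone and each library left out. For sham libraries alone, the sham groups were compared within the fit of all 24 libraries. Alternatives added after seeing the data left out 3 libraries apart by their Gm42418 share, 2 libraries of day 14 and passage 2 apart by interferon genes, or ribosomal RNA genes, or used the Gm42418 share as a covariate. Replicates are numbered by the sample titles, which differ from the numbers in the file names for 4 of 6 IR libraries of day 90. The scripts were tested on simulated counts with genes changed by a known fold. At 1.5-fold, 0% of the changed genes were called for IR at day 90 and passage 2, and 21.2% between passages at day 90. At 4-fold, 86.8% and 98.5% were called. An uncalled gene may thus have changed by about 1.5-fold. Promoter sequences come from RefSeq (GRCm38.p6), an older build than that of the files.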

Additional observations from a re-analysis of the deposited data

Results flagged for a closer look

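Klf7 was singled out because every IR library lay on one side of every sham library on one day and on the opposite side on the other. In passage 1 its log2 fold change of IR over sham was −0.86 at day 14 and 0.35 at day 90. The difference between the days was not tested, since these comparisons chose the gene. The alternatives gave −0.96 to −0.73 at day 14 and 0.21 to 0.47 at day 90, so each kept its sign.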

How the results depend on the processing

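The calls of Scx between passages held in all 23 alternatives of each day. Those of Nfia (14 and 13 of 23) and of Klf7 in passage 2 (14 of 23) did not, and no call of these 3 changed direction. Depth limits Sox2 and Nkx2-3, with 18 and 3 counts in all IR libraries. Of the 10 factors, DESeq2 called 1 between days in passage 1 and 2 in passage 2. Between days in passage 1, 1 was also called with no filter and with only the compared groups. In passage 2, 0 were called by edgeR with only the compared groups, sham libraries alone, the 2 libraries of day 14 and passage 2 left out, or the Gm42418 share as a covariate. Sham libraries alone left 1 called between passages on each day, and at day 90 so did leaving out the 3 libraries apart by their Gm42418 share and the covariate. Leaving out 1 library gave 1 to 2 called between passages on each day, and 0 to 1 between days in passage 2. The cause was not tested.

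Same-numbered libraries did not deviate together in every pair, so the numbers are not taken as pairs. Between passages of day 14 the correlations were 0.045, 0.261 and −0.176 in sham and 0.063, 0.104 and 0.188 in IR. Between those of day 90 they were 0.363, 0.268 and −0.209 in sham and 0.417, −0.108 and 0.16 in IR. The tests of passage thus treat libraries as independent, although passage 2 was grown from passage 1. Numbers come from the sample titles, and 4 of the 6 IR libraries of day 90 carry another number in their file names. This touches the pairing and the block there. By file number, IR replicate 2 of passage 1 matches replicate 1 of passage 2 at day 90, with a correlation of 0.119. Replicate 3 of passage 1 matches replicate 2 of passage 2, with 0.406. The replicate block, set by title number, kept the calls of Scx, Nfia and Klf7. It gave 1 called gene in all for IR at day 14 and passage 2 and 5 between days in passage 1, and turned the uncalled Sox2 between days in passage 2 to −0.49.

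Genes called over the whole table moved with settings. For IR at day 14 and passage 1 (36) they were 123 with DESeq2, 460 with no filter, 81 with only the compared groups, 113 and 98 without the 3 and the 2 libraries, and 86 with the covariate. At day 14 and passage 2 (2) they were 17, 200, 0, 59, 155 and 5 in the same order. At day 90 and passage 1 (5) they were 86, 465, 12, 168, 29 and 0. At day 90 and passage 2 (520) they were 1044 with no filter, 85 with only the compared groups, 1461 without the 3 libraries and 225 with the covariate. Between passages they were 1017 with no filter and 125 in sham alone at day 14 (479), and 1031, 144, 691 without the 2 libraries and 110 with the covariate at day 90 (413). Between days in passage 1 (1) they were 54 with DESeq2, 18 with median-of-ratios factors, 166 with no filter, 25 with only the compared groups, 0 in sham alone, 41 and 26 without the 3 and the 2 libraries, 18 without ribosomal RNA genes and 2 with the covariate. In passage 2 (413) they were 1069 with no filter, 129, 45, 708, 109 and 180 with the covariate. The difference of passage effects (0) gave 1 with DESeq2, 145 with no filter and 5 without the 3 libraries. Leaving out 1 library gave 0 to 146, 0 to 38, 0 to 25 and 137 to 1194 for the 4 IR comparisons. It gave 248 to 553 and 177 to 546 between passages, 0 to 18 and 145 to 678 between days, and 0 to 2 for the difference of passage effects.

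Uncalled factors changed sign as follows. Between passages at day 14, Elf3 (−0.01) went to 0.0080 with DESeq2, 0.0068 with no filter and 0.011 with the covariate. In sham alone Nfib went to −0.18, Bnc2 to −0.43 and Klf7 to −0.37, and Bnc2 went to −0.033 without the 3 and −0.038 without the 2 libraries. At day 90, Sox9 went to −0.021 in sham alone and −0.058 with the covariate, and Bnc2 to 0.082 in sham alone. Between days in passage 1, Elf3 went to 0.0093 with DESeq2 and 0.10 with the covariate, Scx to −0.15 in sham alone and Sox2 to −0.87 without the 3 libraries. In passage 2, Scx went to −0.45 in sham alone. Leaving out 1 library gave −0.056 to 0.17 for Bnc2, −0.14 to 0.23 for Elf3, −0.030 to 0.18 for Klf7 and −0.024 to 0.19 for Nfib between passages at day 14. It gave −0.070 to 0.14 for Sox9 and −0.35 to 2.06 for Sox2 at day 90. Between days in passage 1 it gave −0.25 to 0.23 for Elf3, −0.19 to 0.0085 for Nfia and −0.87 to 0.88 for Sox2, and in passage 2 −0.86 to 0.68 for Sox2.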
